A study of Homo sapiens with 6 samples.

Results

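Transcripts of cholesterol synthesis, transport, storage and control were followed after knockdown of IQGAP2, a scaffold protein that binds calmodulin and actin. The cells were HaCaT, an immortal line of human keratinocytes with an abnormal chromosome number. The set was a list of 30 genes, taken from the deposited table by symbol. Of them 29 had a row among the 12829 genes there. The list holds no uptake receptor and does not cover every enzyme of synthesis. ABCA1, the transporter that exports cholesterol to apolipoproteins, had no row and is not analysed here. The knockdown libraries were 3 of HaCaT cells with a short hairpin RNA against IQGAP2 (genotype IQGAP2 knockdown), and they were set against 3 of HaCaT cells described as the normal control (genotype WT). Both groups were grown in DMEM with serum, and total RNA was extracted for sequencing. Whether the control cells carried a hairpin of their own, how many hairpins were used and whether the knockdown cells were a pool or a clone is not stated in the labels, so a hairpin's effects on other targets and those of IQGAP2 loss cannot be told apart. The libraries are called biological replicates without mention of separate cultures, so p-values here reflect only how these libraries vary, and that variation may be technical.

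Cells make cholesterol from acetyl-CoA. A thiolase and a synthase build HMG-CoA, mevalonate is phosphorylated and decarboxylated to isoprene units, these are joined to farnesyl diphosphate and squalene, and squalene is closed to lanosterol and trimmed to cholesterol. Transcription of most of these enzymes is controlled by SREBP2 (gene SREBF2), a membrane-bound transcription factor: SCAP carries it from the endoplasmic reticulum to the Golgi, where the proteases encoded by MBTPS1 and MBTPS2 release it, and INSIG proteins hold it back when sterols are plentiful. In the epidermis, cholesterol is one of the lipids of the permeability barrier. By its title the series concerns proliferation and mTOR signalling, and mTOR complex 1 is known from other cells to promote SREBP activity.

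The libraries held 12901037 to 15360759 recovered reads in the knockdown group and 13957447 to 15122470 in the control group. IQGAP2 was at 0.0196, 0.0328 and 0.0182 FPKM (a fragment count scaled for gene length and library depth) in knockdown replicates 1 to 3, against 0.2, 0.198 and 0.19 FPKM in control replicates 1 to 3, from 2 to 4 and 21 to 24 reads a library. The groups did not overlap, and 12% of the control level remained (log2 change -0.22, SE 0.072, limma adjusted p = 0.0217, lost on leaving out any control library or knockdown replicate 3, with a range over the alternatives of 4.7e-05 to 0.0556). Knockdown replicate 2 differed more from its group than any other library: chi-square over its degrees of freedom, on recovered reads, was 11.3 and 10.5 against knockdown replicates 1 and 3, whereas the remaining pairs within a group gave 2.1 to 2.49. All 10 keratinocyte markers were in the table, and 9 of them had a mean of at least 5 FPKM. Their summed level was 6800 to 7510 FPKM in knockdown libraries and 6760 to 6860 FPKM in control libraries. No marker of another cell type had a mean of 5 FPKM. Those of fibroblasts (3 of 8 in the table) summed to 1.56 to 1.91 FPKM in knockdown libraries and 3.46 to 3.79 FPKM in control libraries, and those of melanocytes (2 of 7) to 0.855 to 1.04 FPKM in knockdown libraries and 1.2 to 1.28 FPKM in control libraries. Immune cell markers (1 of 7) reached at most 0.261 FPKM in knockdown libraries and 0.557 FPKM in control libraries, and endothelial markers (2 of 5) at most 0.484 FPKM in knockdown libraries and 0.401 FPKM in control libraries. The part of these markers in the results was not tested.

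Of 18 enzymes of cholesterol synthesis tested, 11 fell in knockdown cells and 1 rose, with the deepest falls in DHCR7 and EBP at the sterol end of the pathway, while the transcript of SREBP2 itself did not pass the test (95% interval of its log2 change -0.08 to 0.13). After libraries were rescaled to the same FPKM sum, 7 of these enzymes fell and 3 rose. With the length trend removed 8 fell and 1 rose. The 18 include GGPS1, whose product serves protein prenylation and which did not pass the test. Changes are given as knockdown minus control on the scale of log2(FPKM + 1), a scale that shrinks changes of low genes, and a gene is said to have risen or fallen where limma's adjusted p over all genes tested was under 0.05. Of 28 members with a mean of at least 0.5 FPKM, 5 rose and 14 fell, together 67.9%, against 57.4% of the 11214 genes tested. By direction, 17.9% of members rose against 29.5% of all genes, and 50% fell against 27.8%. The median change of the members was -0.22, against 0.01 over all genes. Values of the groups did not overlap for 22 of the 28 members, against 65.1% of all genes. In bulk RNA, fewer cells with a transcript and less of it per cell cannot be told apart. FPKM sums differed between the groups, at 234624 to 248082 in knockdown and 271372 to 274709 in control libraries. Rescaled to a common sum, the median over all genes was 0.14 and that of the members -0.07. Then 8 members rose and 10 fell, so that rises made up 44.4% of the members' calls in place of 26.3%, and 72.6% of all calls in place of 51.5%. Without knockdown replicate 2, 3 members rose and 15 fell.

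**Figure D1:**
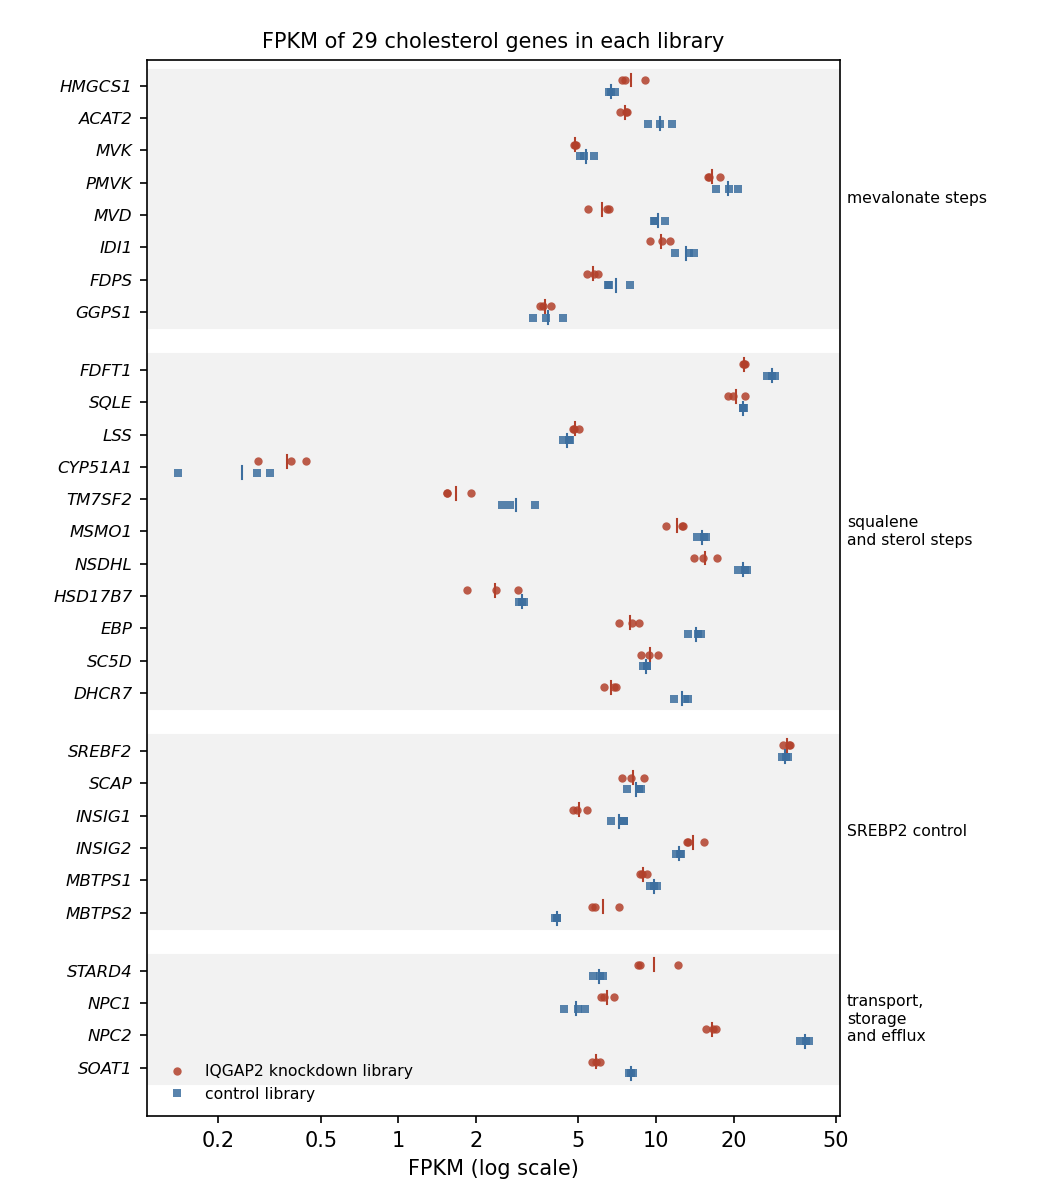
FPKM of the 29 members in each library on a log axis, grouped by role, with 3 knockdown libraries (circles) above 3 control libraries (squares) and a bar at each group's mean. NPC2, EBP and DHCR7 lie apart with the knockdown lower, STARD4 and MBTPS2 with the knockdown higher, and SREBF2 values overlap.

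For 7 members the DNA before the start is shown, since the known control of this pathway acts there. Shown are the 250 bases before a RefSeq start of 3 genes that fell strongly in synthesis (DHCR7, EBP, MVD), of the feedback gene INSIG1 that also fell, of HMGCS1 and STARD4, which rose, and of SREBF2, read 5′ to 3′ on the gene's strand. The windows are, on GRCh38.p14, DHCR7 at chr11:71448394-71448643 (minus strand), EBP at chrX:48521558-48521807 (plus strand), MVD at chr16:88663092-88663341 (minus strand), INSIG1 at chr7:155297628-155297877 (plus strand), HMGCS1 at chr5:43313413-43313662 (minus strand), STARD4 at chr5:111512536-111512785 (minus strand) and SREBF2 at chr22:41832855-41833104 (plus strand). Capitals mark the NF-Y box CCAAT on either strand (ATTGG where it lies on the other strand) and, in SREBF2 alone, the match to the sterol regulatory element, searched as ATCACNCCAC.
DHCR7: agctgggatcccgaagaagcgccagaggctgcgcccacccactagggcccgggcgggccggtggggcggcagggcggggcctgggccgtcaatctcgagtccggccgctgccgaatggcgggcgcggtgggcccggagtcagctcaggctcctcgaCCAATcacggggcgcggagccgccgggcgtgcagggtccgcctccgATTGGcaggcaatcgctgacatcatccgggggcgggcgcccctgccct
EBP: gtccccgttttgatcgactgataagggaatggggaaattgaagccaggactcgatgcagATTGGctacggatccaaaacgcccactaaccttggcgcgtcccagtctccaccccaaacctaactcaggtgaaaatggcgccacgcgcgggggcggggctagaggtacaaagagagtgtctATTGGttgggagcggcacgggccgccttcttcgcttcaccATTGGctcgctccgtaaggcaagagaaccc
MVD: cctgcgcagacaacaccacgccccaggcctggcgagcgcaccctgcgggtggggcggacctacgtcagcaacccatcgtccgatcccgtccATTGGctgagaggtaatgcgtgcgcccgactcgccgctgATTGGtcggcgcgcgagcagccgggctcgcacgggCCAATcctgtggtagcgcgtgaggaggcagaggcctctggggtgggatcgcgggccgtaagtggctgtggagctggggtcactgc
INSIG1: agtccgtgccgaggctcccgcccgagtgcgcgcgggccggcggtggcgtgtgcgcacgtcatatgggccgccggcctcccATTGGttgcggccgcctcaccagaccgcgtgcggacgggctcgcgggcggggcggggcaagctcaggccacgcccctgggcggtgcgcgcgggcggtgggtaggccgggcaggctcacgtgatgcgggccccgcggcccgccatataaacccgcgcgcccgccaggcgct
HMGCS1: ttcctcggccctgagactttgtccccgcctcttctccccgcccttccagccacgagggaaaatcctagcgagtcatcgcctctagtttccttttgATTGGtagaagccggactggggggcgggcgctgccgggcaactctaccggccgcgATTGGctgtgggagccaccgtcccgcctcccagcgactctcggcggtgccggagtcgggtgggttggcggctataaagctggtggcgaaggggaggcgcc
STARD4: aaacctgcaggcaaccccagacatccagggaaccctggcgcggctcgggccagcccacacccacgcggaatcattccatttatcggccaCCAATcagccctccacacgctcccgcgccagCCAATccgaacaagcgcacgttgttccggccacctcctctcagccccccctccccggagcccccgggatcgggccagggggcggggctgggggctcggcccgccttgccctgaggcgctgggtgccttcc
SREBF2: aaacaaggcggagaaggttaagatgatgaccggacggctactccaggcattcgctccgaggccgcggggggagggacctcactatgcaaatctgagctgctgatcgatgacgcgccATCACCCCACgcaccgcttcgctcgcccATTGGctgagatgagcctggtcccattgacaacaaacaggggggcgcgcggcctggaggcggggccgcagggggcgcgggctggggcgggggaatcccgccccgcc
NF-Y is a factor known to act beside SREBP at many sterol-controlled promoters. In the windows shown, EBP and MVD each held 3 of its boxes. DHCR7, HMGCS1 and STARD4 held 2 each, and INSIG1 and SREBF2 held 1 each. DHCR7 and HMGCS1 have 2 windows each, and the one with the most marked matches was shown, the first listed in a tie.

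Motif letters were counted over the whole windows of 300 bases (250 before and 50 after the start), on both strands, for the 26 of 29 members with a RefSeq window, a gene with several starts counting once. The string ATCACNCCAC, a form of the sterol regulatory element, was found in 1 member and in 0.165% of the 9111 genes tested with a window. The member was SREBF2, where the string lies 134 to 125 bases before the start. Other forms of the element were not searched. CCAAT was found in 19 members (73.1%), against 43.6% of genes tested. It was present in 11 of 12 members that fell, 2 of 5 that rose and 6 of 8 that did not pass the test. Among all genes tested, 45.1% of those that fell and 41.7% of those that rose held it. The Sp1 box GGGCGG was in 23 members (88.5%, against 78%) and the E-box CACGTG in 4 (15.4%, against 12.6%). In the SREBF2 window the CCAAT box (106 to 102 bases before the start) did not overlap the sterol element, and overlaps between motifs elsewhere were not examined. Such matches describe these windows only.

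In the mevalonate steps, 5 of 8 genes fell and 1 rose, with a median change of -0.22. MVD, the decarboxylase that yields isopentenyl diphosphate, had 6.56, 5.46 and 6.48 FPKM in the knockdown libraries, against 10.8, 9.86 and 9.95 FPKM in the control libraries. All 3 knockdown values lay below all control values, and the level was 60.4% of control (log2 change -0.65, SE 0.075, adjusted p = 6.53e-05). ACAT2, the cytosolic thiolase of the opening step, had 7.73, 7.27 and 7.67 FPKM in knockdown libraries and 9.27, 10.4 and 11.5 FPKM in control libraries. Again the groups were apart, at 72.8% of control (log2 change -0.41, adjusted p = 0.00109). ACAT2 shares 397 exon bases with TCP1 on the opposite strand, which was at 58.7 ± 1.87 FPKM in knockdown libraries and 62.9 ± 1.69 FPKM in control libraries (SD, n = 3 each, as for all such values here), which misses the threshold (adjusted p = 0.0864). ACAT2 also shares 1141 exon bases with SOD2 and 1458 with SOD2-OT1, both on the opposite strand and without a row in the deposited table. The strand setting is not given, so the division of ACAT2 reads is uncertain. IDI1, the isomerase of isopentenyl diphosphate, had 10.6, 9.52 and 11.3 FPKM in knockdown libraries and 14.1, 13.4 and 11.9 FPKM in control libraries. FDPS, which makes farnesyl diphosphate, was at 5.71 ± 0.274 FPKM in knockdown libraries and 7.01 ± 0.816 FPKM in control libraries. Both fell, without overlap of the groups, by 0.30 and 0.25 on the log2 scale (adjusted p = 0.00708 and 0.0205), although neither passed after rescaling to a common sum (adjusted p = 0.105 and 0.291, ranges over the alternatives 0.00395 to 0.105 and 0.00982 to 0.291). FDPS also lost its call without knockdown replicate 1 (adjusted p = 0.063), without control replicate 2 (0.0881) or with the length trend removed (0.0714), and 8 pseudogenes in the annotation carry its name, so that the division of its reads is uncertain.

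HMGCS1, the cytosolic HMG-CoA synthase, went the other way. It had 7.39, 9.04 and 7.6 FPKM in knockdown libraries and 6.66, 6.92 and 6.56 FPKM in control libraries, a ratio of 1.19 with no overlap. The knockdown values were led by replicate 2. The rise passed narrowly (log2 change 0.22, SE 0.075, adjusted p = 0.0296) and was lost with quantile scaling (0.18, adjusted p = 0.0561), without knockdown replicate 2 (0.14, adjusted p = 0.0515) or without control replicate 1, 2 or 3 (adjusted p = 0.0798, 0.0526 and 0.0911), with a range over the alternatives of 0.00418 to 0.0911. The kinases and the geranylgeranyl synthase had smaller differences. PMVK, phosphomevalonate kinase, was at 16.5 ± 1.05 FPKM in knockdown libraries and 19 ± 1.88 FPKM in control libraries, with overlap. Its fall passed at adjusted p = 0.047 (log2 change -0.19) but turned to 0.08 with the length trend removed, and 11 of 16 alternatives did not keep the call, among them those without knockdown replicate 2 (adjusted p = 0.0918), knockdown replicate 3 (0.123), control replicate 2 (0.189) and control replicate 3 (0.121), with a range of 0.0145 to 0.699. MVK, mevalonate kinase, was at 4.84 ± 0.0395 FPKM in knockdown libraries and 5.36 ± 0.353 FPKM in control libraries, short of the threshold (95% interval of the log2 change -0.27 to 0.02, adjusted p = 0.132). GGPS1, which makes the geranylgeranyl donor of protein prenylation, was at 3.7 ± 0.179 FPKM in knockdown and at 3.8 ± 0.516 FPKM in control libraries (interval -0.22 to 0.17, adjusted p = 0.81) and shares 1422 exon bases with TBCE on the same strand. Of the 8 mevalonate genes, 2 fell after rescaling to a common sum, 3 with the length trend removed and 3 without control replicate 2.

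**Figure D2:**
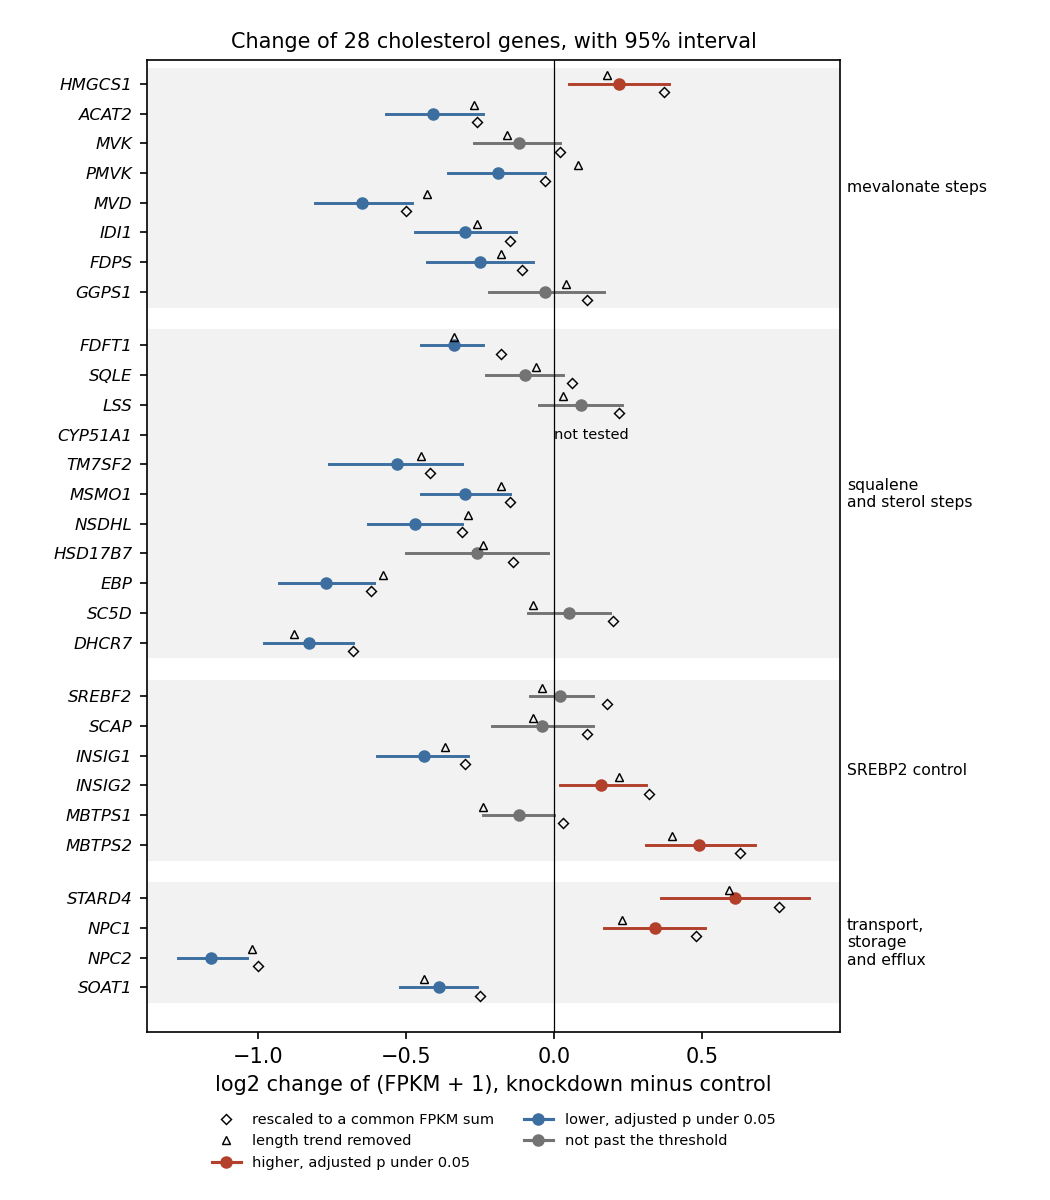
Log2 change of (FPKM + 1), knockdown minus control, for the 28 members tested, with the 95% interval of limma as a line, in red for members that rose, blue for those that fell and grey for the rest. Open diamonds give the change after rescaling to a common FPKM sum and open triangles the change with the length trend removed; DHCR7, EBP, MVD and NPC2 stay far below 0 and STARD4 and MBTPS2 far above it under both.

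The sterol end of the pathway held the deepest falls in synthesis: of 10 genes tested from squalene to cholesterol 6 fell and none rose, with a median of -0.32, and after rescaling to a common sum 5 fell and 2 rose. DHCR7, the reductase that converts dehydrocholesterol to cholesterol (chromosome 11, 71428193 to 71452868, minus strand, GENCODE v29 on GRCh38), had 6.26, 6.85 and 6.98 FPKM in knockdown libraries and 13, 11.7 and 13.3 FPKM in control libraries. All knockdown values lay well below all control values, at 52.8% of control (log2 change -0.83, SE 0.067, adjusted p = 7.52e-06). EBP, the sterol isomerase, had 8.05, 7.16 and 8.57 FPKM in knockdown libraries and 14.5, 15 and 13.3 FPKM in control libraries. It stood at 55.6% of control (log2 change -0.77, SE 0.072, adjusted p = 1.74e-05), again with no overlap. TM7SF2, a sterol reductase of the middle of the pathway, had 1.92, 1.54 and 1.54 FPKM in knockdown libraries and 2.52, 2.7 and 3.38 FPKM in control libraries, from 73 to 85 and 130 to 162 reads. It was among the lowest members and fell to 58% of control (log2 change -0.53, adjusted p = 0.00117). TM7SF2 shares 16 exon bases on the same strand with VPS51, which also fell (log2 change -0.18, limma adjusted p = 0.0286).

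Of the enzymes of the complex that removes methyl groups from lanosterol derivatives, NSDHL and MSMO1 fell. NSDHL, its dehydrogenase, had 17.3, 15.2 and 14 FPKM in knockdown libraries and 22.1, 20.8 and 22.6 FPKM in control libraries (71% of control, log2 change -0.47, adjusted p = 0.000357). MSMO1, its methylsterol monooxygenase, had 12.6, 12.7 and 10.9 FPKM in knockdown libraries and 14.4, 15.7 and 15.3 FPKM in control libraries (79.9%, log2 change -0.30, adjusted p = 0.00328). Both fell without overlap, and the MSMO1 call was lost after rescaling to a common sum (-0.15, adjusted p = 0.109) and with the length trend removed (-0.18, adjusted p = 0.0507), with a range over the alternatives of 0.0016 to 0.109. HSD17B7, the keto-reductase of the same complex, had 2.4, 1.84 and 2.9 FPKM in knockdown libraries and 3.02, 2.94 and 3.08 FPKM in control libraries. The control values were tight and the knockdown values spread below them, and at 78.9% of control the test was missed (log2 change -0.26, 95% interval -0.50 to -0.02, adjusted p = 0.0577). The change was -0.14 without knockdown replicate 2 (adjusted p = 0.15), and it passed as lower without knockdown replicate 3 (-0.37, adjusted p = 0.00975), with quantile scaling (0.0382), with the replicate block (0.0448) and with voom on recovered reads (0.0379), with a range over the alternatives of 0.00975 to 0.256. The annotation has 2 pseudogenes named after HSD17B7.

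At the head of the sterol branch, FDFT1, squalene synthase, had 21.7, 21.9 and 22.2 FPKM in knockdown libraries and 28.3, 29 and 27 FPKM in control libraries. This was a small but even fall, to 78.1% of control (log2 change -0.34, SE 0.046, adjusted p = 0.000174). SQLE, squalene epoxidase and a step known to limit the pathway, had 19, 22.2 and 19.9 FPKM in knockdown libraries and 21.7, 21.8 and 22 FPKM in control libraries. The knockdown library above all controls was replicate 2, and SQLE did not pass with all libraries (95% interval -0.23 to 0.03, adjusted p = 0.181) but passed as lower without that replicate (log2 change -0.16, adjusted p = 0.0083, range over the alternatives 0.0083 to 0.485). LSS, lanosterol synthase, was at 4.87 ± 0.149 FPKM in knockdown libraries and 4.53 ± 0.137 FPKM in control libraries (interval -0.05 to 0.23, adjusted p = 0.261, and 0.0192 with a change of 0.22 after rescaling to a common sum, range over the alternatives 0.0192 to 0.702). SC5D, the sterol desaturase next to the last step, was at 9.47 ± 0.715 FPKM in knockdown and at 9.12 ± 0.193 FPKM in control libraries (interval -0.09 to 0.19, adjusted p = 0.55, and 0.042 with a change of 0.20 after rescaling to a common sum, range 0.042 to 0.959). CYP51A1, the lanosterol demethylase, was listed at 0.436, 0.384 and 0.285 FPKM in knockdown libraries and 0.316, 0.14 and 0.282 FPKM in control libraries, from 7 to 21 reads, and lay below the filter. Its values overlapped, and without a filter the change was 0.14 (SE 0.078, adjusted p = 0.169). CYP51A1 shares 2844 exon bases with another protein-coding entry of GENCODE v29 on the same strand and has 3 pseudogenes, so the division of its reads is uncertain.

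Genes that control SREBP2 moved in different directions: of 6, 2 rose, 1 fell and 3 did not pass (median -0.01), while 1 rose and 2 fell without knockdown replicate 2, 2 rose and 2 fell with the length trend removed, and 3 rose and 1 fell after rescaling to a common sum. INSIG1, which retains SREBP2 in the endoplasmic reticulum and is itself known as an SREBP target, had 4.76, 4.92 and 5.41 FPKM in knockdown libraries and 7.48, 7.48 and 6.66 FPKM in control libraries. It fell to 69.8% of control with no overlap (log2 change -0.44, SE 0.071, adjusted p = 0.000468). Its paralog INSIG2, known to be less dependent on sterols, had 13.3, 15.3 and 13.2 FPKM in knockdown libraries and 12.4, 12.5 and 12 FPKM in control libraries. INSIG2 passed as higher at adjusted p = 0.0488 (log2 change 0.16), and the call was lost in 7 of 16 alternatives, among them those without knockdown replicate 2 (adjusted p = 0.0894) and without control replicate 1, 2 or 3 (0.103, 0.0862 and 0.144), with a range of 0.00402 to 0.144.

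The proteases split as well. MBTPS2, the intramembrane protease that makes the second cut, had 5.81, 7.17 and 5.66 FPKM in knockdown libraries and 4.14, 4.06 and 4.13 FPKM in control libraries. It rose 1.51-fold with no overlap (log2 change 0.49, SE 0.083, adjusted p = 0.000688), and knockdown replicate 2 was the highest. MBTPS2 shares 1093 exon bases with YY2 on the same strand, which was at 0.578 ± 0.236 FPKM in knockdown libraries and 0.479 ± 0.217 FPKM in control libraries. MBTPS1, the protease of the opening cut, was at 8.91 ± 0.269 FPKM in knockdown libraries and 9.78 ± 0.286 FPKM in control libraries. The groups did not overlap, but the test was missed (95% interval -0.24 to 0.00, adjusted p = 0.0834), whereas it passed as lower without knockdown replicate 2 (-0.14, adjusted p = 0.0358), with quantile scaling (-0.14, adjusted p = 0.0479) and with the length trend removed (-0.24, adjusted p = 0.00297), and the change was 0.03 after rescaling to a common sum (range over the alternatives 0.00297 to 0.72). SREBF2 had 33, 32.9 and 31.1 FPKM in knockdown libraries and 32, 30.9 and 32.5 FPKM in control libraries. These values overlapped (log2 change 0.02, 95% interval -0.08 to 0.13, adjusted p = 0.707), and only rescaling to a common sum, of the alternatives run, gave a call (0.18, adjusted p = 0.0128, range 0.0128 to 0.985). SCAP, the escort protein, was at 8.13 ± 0.787 FPKM in knockdown and at 8.36 ± 0.529 FPKM in control libraries (interval -0.21 to 0.13, adjusted p = 0.687). Transcript levels of these regulators do not measure the processed factor.

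The genes that move cholesterol inside the cell showed the widest range, with 2 of 4 higher and 2 lower. NPC2, the soluble lysosomal protein that hands cholesterol to NPC1 (chromosome 14, 74476192 to 74494177, minus strand), had 17.1, 15.6 and 16.6 FPKM in knockdown libraries and 39.1, 36.3 and 38.2 FPKM in control libraries. It had the largest change of any member, to 43.4% of control (log2 change -1.16, SE 0.053, adjusted p = 1.99e-07), and ranked 5 among the 29 members by mean FPKM in knockdown libraries and 1 in control libraries. NPC1, the membrane protein that receives this cholesterol, had 6.29, 6.89 and 6.14 FPKM in knockdown libraries and 4.97, 4.4 and 5.31 FPKM in control libraries. NPC1 rose 1.32-fold with no overlap (log2 change 0.34, adjusted p = 0.00369). NPC1 shares 604 exon bases with RMC1 and NPC2 shares 103 with ISCA2, both on the opposite strand, and neither partner passed the test (log2 changes -0.09 and -0.03).

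STARD4, a soluble carrier of sterols between membranes and a known SREBP target, had 8.55, 12.2 and 8.65 FPKM in knockdown libraries and 6.21, 6.08 and 5.71 FPKM in control libraries. Its rise of 1.63-fold was the largest among the members (log2 change 0.61, SE 0.11, adjusted p = 0.00115), with replicate 2 well above the other knockdown libraries, and was 0.46 without that replicate (adjusted p = 0.000121, range over the alternatives 0.000121 to 0.00661). SOAT1, the enzyme that esterifies cholesterol for storage in droplets, had 5.85, 6.04 and 5.66 FPKM in knockdown libraries and 7.86, 8 and 8.11 FPKM in control libraries. It fell to 73.2% of control with tight values in both groups (log2 change -0.39, SE 0.057, adjusted p = 0.000279).

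Summed over the 19 synthesis enzymes in the table, GGPS1 among them, the level was 166 ± 1 FPKM in knockdown libraries and 209 ± 2.65 FPKM in control libraries (SD, n = 3 each). The knockdown level was 79.4% of control. As a share of each library's FPKM sum it was 6.83 ± 0.229 in knockdown and 7.66 ± 0.0569 in control libraries per 10000, or 89.2%. The mevalonate steps summed to 63 ± 1.21 FPKM in knockdown libraries and 75.7 ± 2.72 FPKM in control libraries, and the squalene and sterol steps to 103 ± 1.53 FPKM in knockdown libraries and 133 ± 0.577 FPKM in control libraries. The regulators of SREBP2 summed to 74.5 ± 3.59 FPKM in knockdown libraries and 73.6 ± 1.27 FPKM in control libraries, with overlapping values. As a share of the FPKM sum they did not overlap, at 2.97, 3.35 and 2.89 in knockdown libraries and 2.75, 2.63 and 2.7 in control libraries per 10000, or 114% of control. The 4 transport and storage genes summed to 38.5 ± 1.91 FPKM in knockdown libraries, against 56.8 ± 1.74 FPKM in control libraries, a difference carried by NPC2. These sums weigh the abundant members most.

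**Figure D3:**
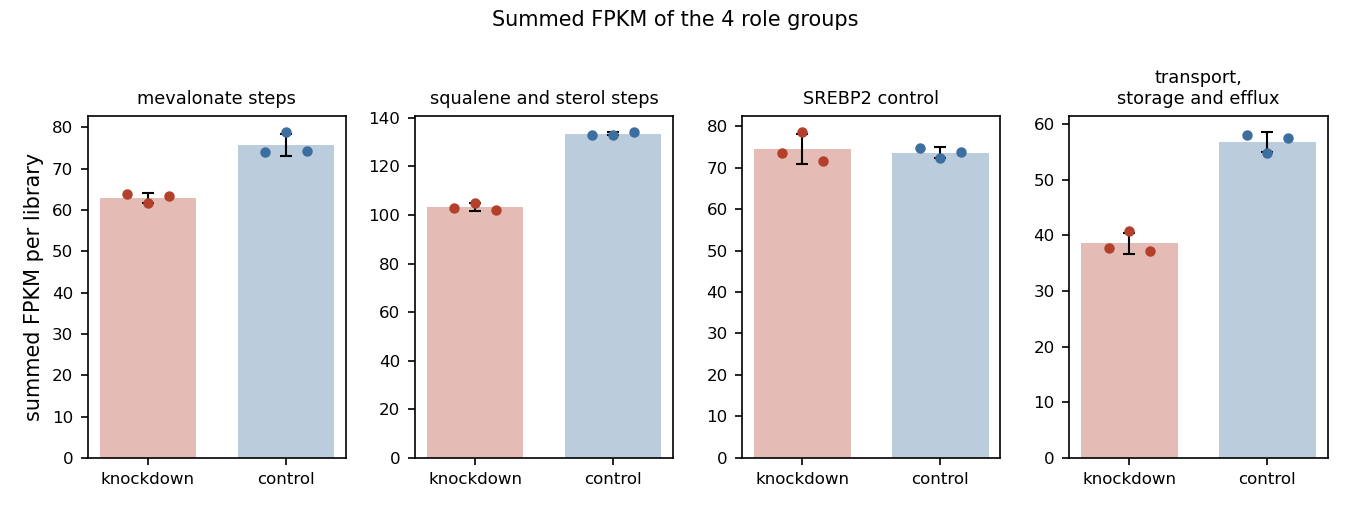
Summed FPKM of the members in each role group, per library (points), with bars at the mean and error bars of 1 SD over 3 libraries, knockdown left of control. The squalene and sterol steps sum to 103 FPKM in knockdown against 133 in control libraries, while the summed FPKM of the SREBP2 control genes overlaps.

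Ratios between partner genes within a library do not change when each library is multiplied by a factor of its own. Quantile scaling and removal of the length trend can change them. The pairs were chosen after their values were seen and are given without a test. INSIG2 over INSIG1 was 2.8, 3.11 and 2.44 in knockdown and 1.66, 1.68 and 1.8 in control libraries. NPC1 over NPC2 was 0.367, 0.442 and 0.369 in knockdown and 0.127, 0.121 and 0.139 in control libraries. MBTPS2 over MBTPS1 was 0.668, 0.779 and 0.642 in knockdown and 0.411, 0.428 and 0.422 in control libraries. In each pair the knockdown libraries lay above all controls, replicate 2 highest. With the length trend removed the mean ratios were 2.76, 0.356 and 0.7 in knockdown and 1.73, 0.142 and 0.419 in control libraries.

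**Figure D4:**
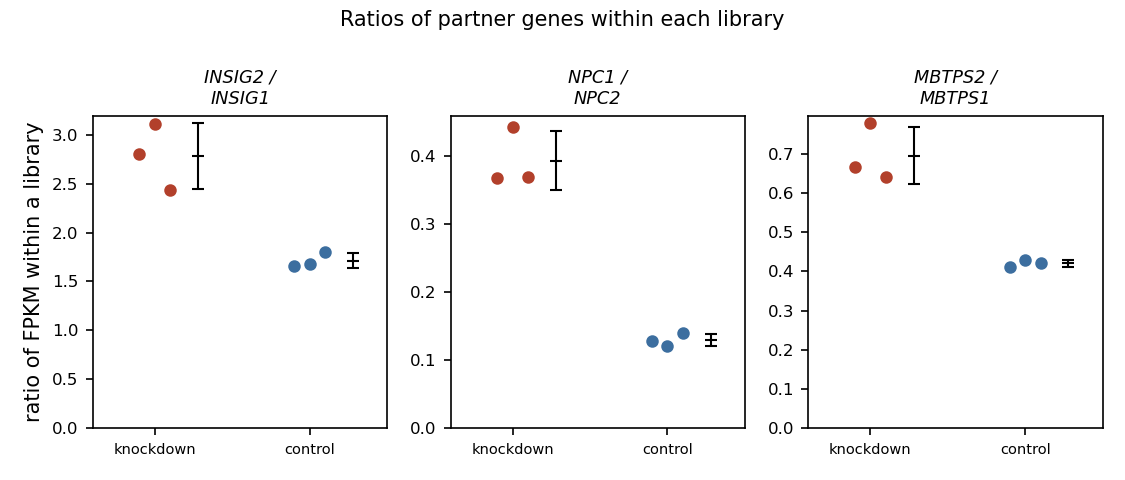
Ratio of FPKM between partner genes within each library (points), with the mean and 1 SD over 3 libraries beside them, knockdown left of control. INSIG2 over INSIG1 averages 2.78 in knockdown against 1.71 in control, NPC1 over NPC2 0.393 against 0.129, and MBTPS2 over MBTPS1 0.696 against 0.42.

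The members' changes ran with gene length in part. Across the 28 members tested, Spearman's rho between the length implied by the value of 1 read and the log2 change was 0.62, and 0.41 with the length trend of all genes removed. The points share the same 6 libraries. Over all 11214 genes the rho was 0.30. EBP, NSDHL and PMVK are among the shortest 9% of genes tested, and removing the trend moved their changes to -0.58, -0.29 and 0.08. DHCR7, longer than 68% of genes tested, moved to -0.88. MVD also ranked among the shortest by implied length and moved to -0.43. Its annotated exons span 4717 bases, against 1280 to 2409 for EBP, NSDHL and PMVK, so its recovered reads may lack a divisor common to all 6 libraries. Its implied length, its change with the trend removed and its place in the rho values are therefore uncertain. With the trend removed, 5 members rose and 12 fell. Knockdown replicate 2 lay farthest from the control mean for 15 of 28 members, replicate 1 for 7 and replicate 3 for 6. Median SDs on the log2 scale were 0.092 in knockdown and 0.058 in control libraries, and 17 members had the larger SD in the knockdown. What part length and replicate 2 have in these changes was not tested beyond these values.

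Lists of related genes are set beside the synthesis enzymes, of which 1 of 18 tested rose (5.56%) and 11 fell (61.1%). The shares over all genes tested were 29.5% and 27.8%. After rescaling to a common sum 3 of these enzymes rose and 7 fell. GGPS1 is counted in the 18, although its product serves protein prenylation. The isoprenoid branch turns the same precursors into ubiquinone, dolichol and protein anchors. Of 19 of its genes, 6 rose and 2 fell (31.6% and 10.5%, median 0.09). PDSS1, which builds the ubiquinone tail, fell to 7.81 ± 0.284 FPKM in knockdown libraries, against 11.5 ± 0.915 FPKM in control libraries. CHM, the escort protein for prenylation of RAB proteins, rose to 4.63 ± 0.677 FPKM in knockdown, against 2.71 ± 0.169 FPKM in control libraries (adjusted p = 0.000379). After rescaling to a common sum 10 of the 19 rose and 2 fell, while over all 11214 genes 4864 rose and 1838 fell.

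Among 24 further genes of sterol synthesis and SREBP control 10 rose and 7 fell (median -0.06). These were 41.7% and 29.2%, beside 29.5% and 27.8% of all genes tested. Without knockdown replicate 2, 6 of the 24 rose and 9 fell. Counts of rises were 6, 6 and 5 without control replicates 1, 2 and 3. After rescaling to a common sum 11 of the 24 rose and 4 fell, while over all 11214 genes 4864 rose and 1838 fell. ACAT1, the mitochondrial thiolase, was at 6.56 ± 0.381 FPKM in knockdown libraries and 12.2 ± 0.574 FPKM in control libraries (log2 change -0.80, adjusted p = 5.63e-06). RNF145, a ubiquitin ligase of sterol control, was at 23 ± 0.372 FPKM in knockdown and at 32.2 ± 1.14 FPKM in control libraries and fell. HSPA5, the endoplasmic reticulum chaperone, rose to 272 ± 7.26 FPKM in knockdown, against 188 ± 1.28 FPKM in control libraries.

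Of 32 further genes of sterol transport, storage and efflux tested, 14 rose and 9 fell (median 0.01). These were 43.8% and 28.1%, beside 29.5% and 27.8% of all genes tested. With the length trend removed 8 of the 32 rose and 9 fell. After rescaling to a common sum 15 of the 32 rose and 4 fell, while over all 11214 genes 4864 rose and 1838 fell. OSBPL8, a lipid transfer protein of membrane contacts, was at 11.5 ± 1.12 FPKM in knockdown libraries and 6.4 ± 0.247 FPKM in control libraries, and CAV1, the caveolar protein, at 467 ± 4.78 FPKM in knockdown and at 299 ± 4.04 FPKM in control libraries. Both rose (log2 changes 0.75 and 0.64). GRAMD1A, which carries cholesterol from the plasma membrane to the endoplasmic reticulum, fell to 2.82 ± 0.282 FPKM in knockdown, against 4.8 ± 0.272 FPKM in control libraries (log2 change -0.60, adjusted p = 0.000123). Of 26 genes of fatty acid synthesis, the neighbouring SREBP-controlled pathway, 10 rose and 4 fell (38.5% and 15.4%, median 0.04). After rescaling to a common sum 13 of the 26 rose and 4 fell. SCD, the desaturase that makes oleate, rose to 104 ± 8.9 FPKM in knockdown, against 59 ± 0.313 FPKM in control libraries (log2 change 0.80, adjusted p = 4.29e-06), HACD2 of fatty acid elongation rose by 0.57, and TECR, the reductase of the same elongation cycle, fell by 1.01 on the log2 scale. The difference in counts between these lists and the synthesis enzymes was not tested.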

How the data were processed

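RNA of 3 IQGAP2 knockdown and 3 control libraries was extracted with TRIzol and prepared with an Illumina TruSeq RNA kit, per the labels' protocols, and aligned with HISAT2 2.2.1 to GRCh38, per the submitters' processing notes. The authors deposited FPKM values. The counting program, annotation, gene lengths and strand setting were not given in the sources used here. Every gene in the table had a mean of at least 0.1 FPKM.

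Whole reads were recovered from the steps of the FPKM values for 100.0% of genes, within 0.004 reads, up to a divisor common to all 6 libraries. They served for depth, gene length and an alternative test. The comparison used log2(FPKM + 1) values of genes averaging 0.5 FPKM or more, fitted with limma 3.58.1 under R 4.3.3, with group as the only factor, a mean-variance trend, two-sided tests and Benjamini-Hochberg adjustment over 11214 genes. IQGAP2, below the filter, was tested in the same model with that gene added. Exact permutation over 3 against 3 libraries cannot go below 0.1, the value for IQGAP2.

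The length trend was removed per library by a loess curve (span 0.5) over the implied length. Coordinates, exon overlaps and pseudogenes are from GENCODE v29, which held 12818 of the 12829 identifiers, and promoter windows are from RefSeq on GRCh38.p14. Code was tested on simulated data. All members are named, and of each other list the up to 3 genes with the largest change among those past the threshold without overlap, of which 1 is not reported here. Members, lists and tests were chosen with earlier results of these data known.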

Additional observations from a re-analysis of the deposited data

How the results depend on the processing

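Of 19 members that passed, 13 kept their call in every alternative that tested them, of 16 run: ACAT2, MVD, FDFT1, TM7SF2, NSDHL, EBP, DHCR7, INSIG1, NPC2 and SOAT1 as lower and MBTPS2, STARD4 and NPC1 as higher. The alternatives were pseudocounts of 0.1 and 0.5, no filter and a filter of 5 FPKM, common-sum and quantile scaling, removal of the length trend, limma with no mean trend, the replicate block, each library left out, and voom on recovered reads, which was added after the data were seen. edgeR and DESeq2 were not run on the recovered reads, and voom was used in their place. Rescaling to a common sum gave 8 members higher, in place of 5, and 1838 genes lower, in place of 3121. It turned the sign of MVK (0.02), GGPS1 (0.11), SQLE (0.06), SCAP (0.11) and MBTPS1 (0.03). Removing the length trend turned PMVK (0.08), GGPS1 (0.04), SC5D (-0.07) and SREBF2 (-0.04). With 1 library left out, the change of GGPS1 was -0.10 to 0.05 (turned without control replicate 2) and that of SCAP -0.10 to 0.02 (turned without knockdown replicate 3). In the same fits, 3 to 5 members were higher (3 without knockdown replicate 2 and without each control replicate) and 12 to 15 lower, 2779 to 3250 of all genes were higher and 2678 to 3212 lower, and the IQGAP2 change was -0.23 to -0.22. Same-numbered libraries did not deviate together (correlations -0.07, -0.04 and 0.02). With the replicate block 5 members were higher and 14 lower, PMVK losing its call (adjusted p = 0.0738) and HSD17B7 gaining one (0.0448), and the IQGAP2 change was -0.22. The causes of these differences were not tested. Depth limits IQGAP2, with 2 to 24 reads a library, and CYP51A1, with 7 to 21.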
